A study of Mus musculus with 12 samples.

Results

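Greb1, Nrip1, Xbp1, Pdzk1, Myb, Rara, Ret and Celsr2 are 8 genes known from human breast cancer cells as targets or partners of the estrogen receptor, and they were followed here in a hormone-dependent mouse mammary carcinoma. Of the 18193 genes that the platform annotation names with a single symbol, these 8 were taken by symbol, and all of their probe sets, 23 of the 45101 on the array, were used. Nrip1 has 6 probe sets, Greb1 and Xbp1 have 4 each, Myb has 3, Ret and Celsr2 have 2 each, and Pdzk1 and Rara have 1 each. Probe sets of one gene share its transcripts and are not replicates of each other. In GRCm38.p6 the genes lie at chr12:16670615-16801394 (Greb1), chr16:76287403-76373827 (Nrip1), chr11:5520641-5525993 (Xbp1), chr3:96829456-96870926 (Pdzk1), chr10:21124930-21160984 (Myb), chr11:98927800-98974942 (Rara), chr6:118151748-118197744 (Ret) and chr3:108390848-108416069 (Celsr2).

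The tumour was C4-HD, a mammary carcinoma carried in BALB/c mice that receive MPA (medroxyprogesterone acetate, a progestin). Once tumours measured 50 mm2, surgery exchanged the MPA pellet for one of MFP (mifepristone, a progesterone receptor antagonist that also binds the glucocorticoid receptor) at 10 mg/kg/day. The 12 arrays form 6 groups of 2: MPA, MFP at 6 h, 12 h, 24 h and 48 h, and tumours labelled as treated with saline for 48 h whose source name reads no MPA. All groups had MPA before. Every MFP group differs from the MPA group both in having MFP and in having lost MPA, and only the no MPA group, taken at 48 h, lacks both. The labels leave 2 doubts: the treatment protocol calls tumours on MPA the saline control, and the series text names no 6 h group and has tumours removed after 2 days. Groups follow the source names. Replicates are described as independent but the labels name no animal, so that p-values cover only array-to-array spread, which may be technical.

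Estrogen acts in luminal mammary cells through the estrogen receptor, a transcription factor that binds short palindromic elements, often far from the genes it controls, and recruits coregulators. The progestin receptor gene is itself a classic estrogen target, and progestins and estrogen act in the same cells. Among the 8 genes, NRIP1 (also called RIP140) is a coregulator that binds nuclear receptors and mostly represses their targets. GREB1 is an early estrogen target that binds the receptor on chromatin in human breast cancer cells. XBP1, MYB and RARA are transcription factors, of the unfolded protein response, of progenitor cells and of retinoic acid signalling. RET is the receptor tyrosine kinase for ligands of the GDNF family, PDZK1 is a scaffold protein of the cell cortex, and CELSR2 is an adhesion receptor of planar cell polarity. Estrogen itself was not varied in these mice.

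The upstream sequences of 3 members are shown as examples: Nrip1, with the steadiest rise, Myb, with falls, and Xbp1, which passed only between MFP at 48 h and no MPA. Each is the 250 bases before a RefSeq transcription start of GRCm38.p6, read 5′ to 3′ on the strand of the gene: chr16:76373828-76374077 (minus strand) for Nrip1, chr10:21160985-21161234 (minus strand) for Myb and chr11:5520391-5520640 (plus strand) for Xbp1. Capitals mark an estrogen response half-site, GGTCA on either strand.
Nrip1: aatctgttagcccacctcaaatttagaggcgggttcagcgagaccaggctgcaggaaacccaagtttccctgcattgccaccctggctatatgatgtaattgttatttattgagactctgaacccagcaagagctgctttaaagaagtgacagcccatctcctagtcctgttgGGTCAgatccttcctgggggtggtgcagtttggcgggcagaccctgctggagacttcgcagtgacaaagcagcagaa
Myb: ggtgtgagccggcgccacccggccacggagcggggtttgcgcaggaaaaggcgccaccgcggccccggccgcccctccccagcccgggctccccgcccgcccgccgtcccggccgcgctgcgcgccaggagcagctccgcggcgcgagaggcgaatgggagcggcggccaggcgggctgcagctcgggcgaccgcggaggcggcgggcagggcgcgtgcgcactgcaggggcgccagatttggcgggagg
Xbp1: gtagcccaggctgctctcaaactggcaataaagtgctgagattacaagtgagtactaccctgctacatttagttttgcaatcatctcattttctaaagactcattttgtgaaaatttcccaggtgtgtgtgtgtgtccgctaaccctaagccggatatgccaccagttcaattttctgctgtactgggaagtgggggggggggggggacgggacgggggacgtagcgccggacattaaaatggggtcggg
The Nrip1 window shown holds 1 half-site, whose first base lies 77 bases before the start, while the window of a second annotated Nrip1 start (chr16:76373050-76373299, not shown) and the Myb and Xbp1 windows hold none. Of the 8 members 7 matched RefSeq promoters, 13 windows in all, and 5 of these hold a half-site, against 35.2% of 32851 windows of the same length over all genes. None of the 13 holds the full palindromic estrogen response element (the half-site, any 3 bases, then its reverse complement), which 0.0639% of all windows hold, or the progesterone and glucocorticoid receptor half-site TGTTCT (either strand), which 16.1% hold. Each full element contains a half-site on both strands. These are matches of letters in a short window only.

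The arrays differed in more than the hormone. The deposited values are log2 ratios to the mean of the MPA arrays, so that signal above background is unknown and a level of one gene cannot be set against another. The 3' minus 5' difference of the Actb controls, which rises as RNA breaks, averaged -0.01 ± 0.09 (SD, n = 2) for MPA and 0.02 ± 0.16 for no MPA arrays, then 0.16 ± 0.05 (6 h), 0.35 ± 0.02 (12 h), 0.43 ± 0.11 (24 h) and 0.53 ± 0.09 (48 h). The median over 10 exocrine pancreas genes lay between 4.47 and 6.63 on 5 arrays (both of 6 h, 24 h replicate 2, both of 48 h) and between -1.44 and 1.16 on the others. That over 11 liver genes was 3.64 and 4.08 (24 h) and at most 0.90 elsewhere. In MPA it read 0.90 and -2.90, so that the reference arrays themselves differ in it, and at 6 h 0.88 and -1.14. Fibroblast markers (10 genes) were at 1.21 and 1.39 and macrophage markers (10 genes) at 1.67 and 2.07 (48 h), against -0.62 and 0.40, and -0.73 and 0.48, in MPA. Muscle markers reached 4.72 on 48 h replicate 1 and 1.65 on 24 h replicate 2. The median of luminal markers (10 genes) ranged from -0.39 to 0.55, over genes that moved both ways. Of the 10, 3 were called higher at 12 h against MPA (2.08% of all genes were). At 48 h against no MPA 4 were called lower (6.35% of all genes were). Of these lists 8 of 10 macrophage, 8 of 10 fibroblast and 5 of 10 pancreas genes were called higher at 48 h, 10 of 11 liver genes at 24 h, and 1 luminal gene was called higher and 2 lower at 48 h. Their part in the results below was not tested. In ratios no marker can be read as absent. In such bulk samples fewer cells of a type and less RNA per cell cannot be told apart.

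**Figure D1:**
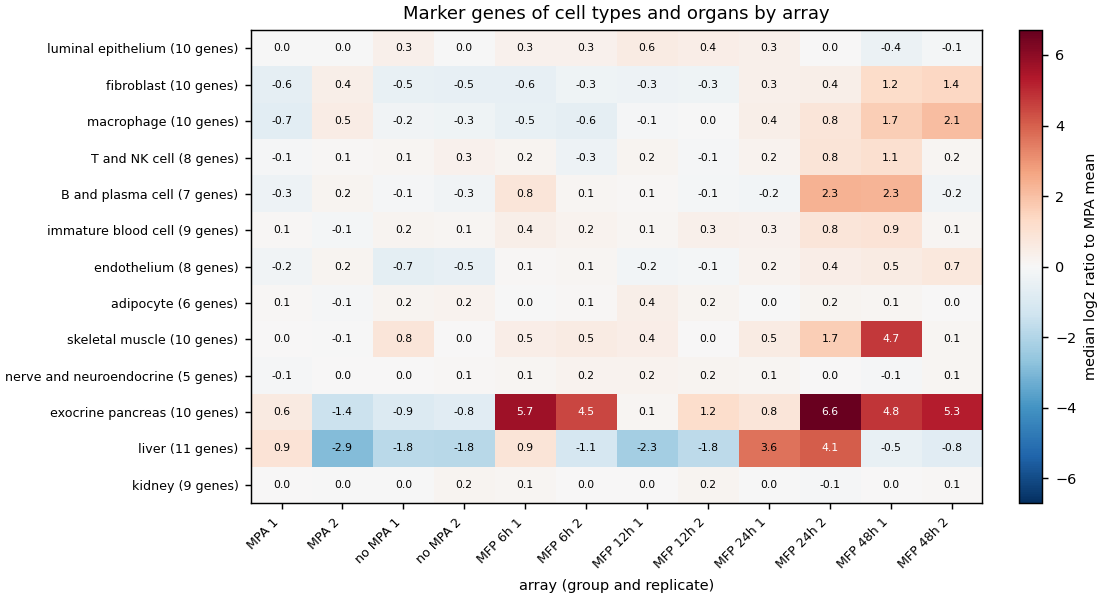
Median log2 ratio to the MPA mean (colour and printed value) of each marker list, by array. The pancreas list is high on 5 of the 12 arrays and the liver list on both arrays of MFP 24 h, while the luminal median lies between -0.39 and 0.55.

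The first comparison asked which members differed between MFP and MPA tumours. At 48 h of MFP, Nrip1 and Ret were higher and Myb was lower than in MPA. In all, 6 of the 23 probe sets passed the test (26.1%), against 9.25% of all 45037 probe sets tested (limma, Benjamini-Hochberg at 0.05). The 6 were 4 of Nrip1, 1 of Ret and 1 of Myb. At 24 h 5 passed, 4 of Nrip1 and 1 of Myb (21.7%, against 6.01% of all), and at 12 h 4 passed, all of Nrip1 (17.4%, against 3.13%). At 6 h none passed, with 0.926% of all probe sets called and 4 members at an unadjusted p under 0.05, where 14% of all probe sets also stood. Higher and lower calls over all probe sets made up 4.37% and 4.88% (48 h), 2.88% and 3.13% (24 h), 1.3% and 1.83% (12 h), or 0.244% and 0.682% (6 h). Since most of these probe sets belong to Nrip1, the counts describe 1 gene at 12 h, 2 at 24 h and 3 at 48 h. The members were chosen with earlier results of these data known, so the shares do not test the group. All 4 times are set against the same MPA arrays. Under quantile normalization, which gives the narrow MPA columns the spread of the others, 2 member probe sets passed at 12 h and none at 24 h or 48 h, where 45 and 18 of all probe sets passed. The median difference from MPA over the 23 probe sets was 0.46 at 48 h, where that of all probe sets was -0.02. This median weighs genes by their number of probe sets and is no rise of the whole group. At 48 h every probe set of Myb, Celsr2, Pdzk1 and Rara stood below MPA.

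**Figure D2:**
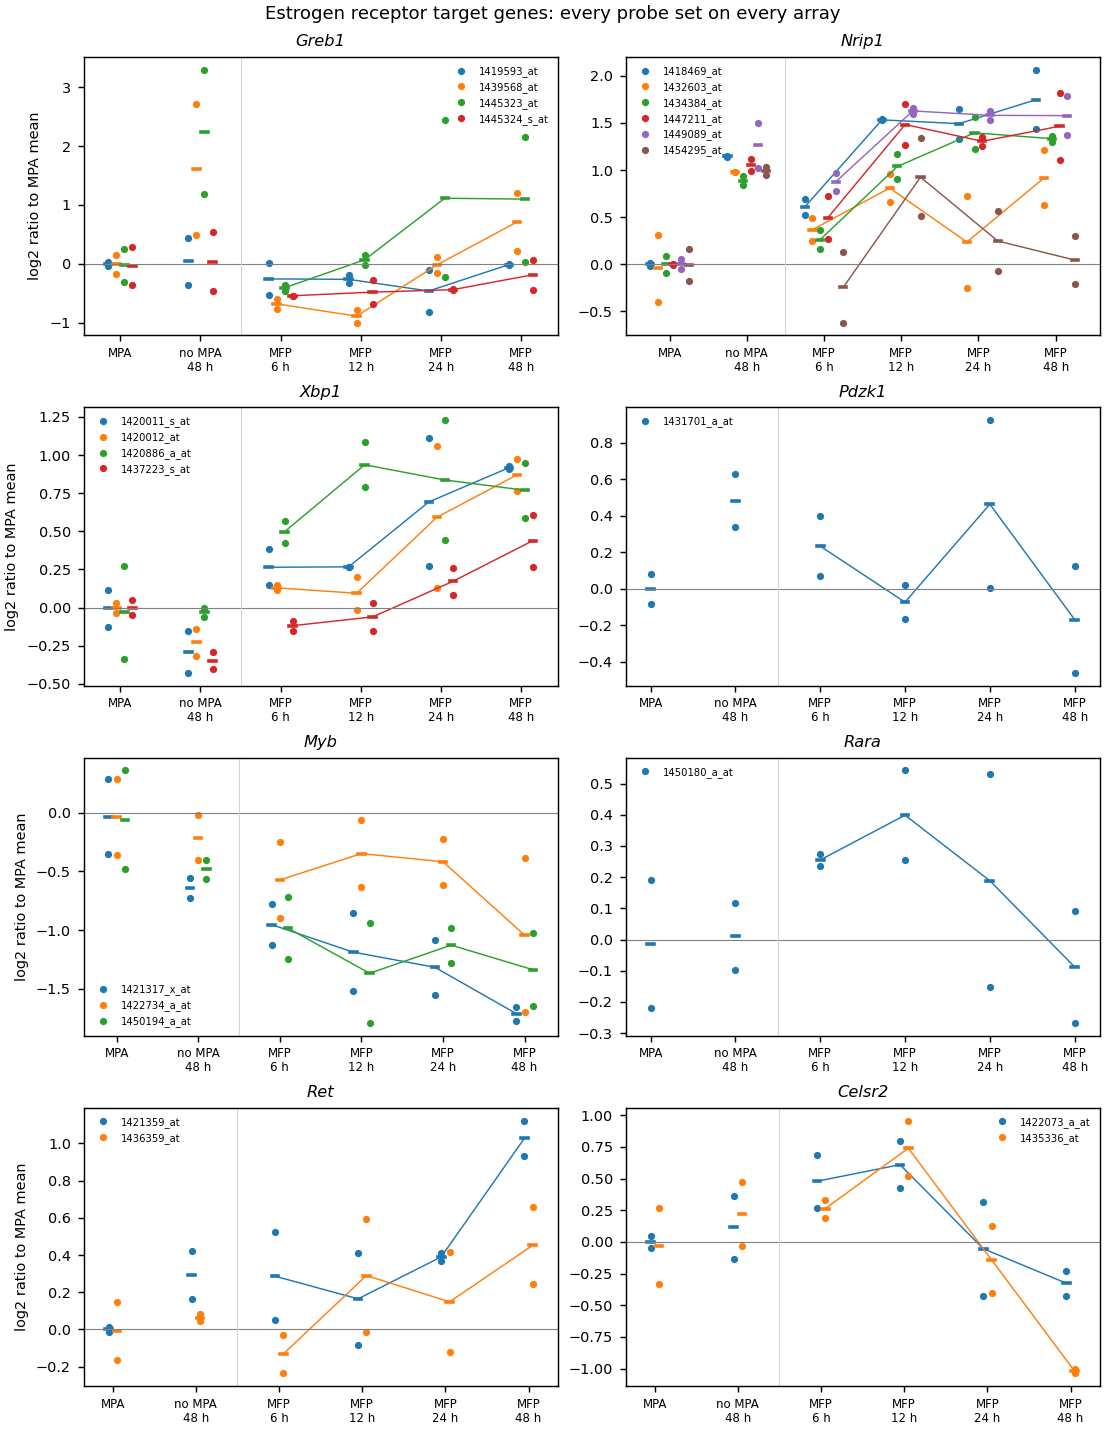
Log2 ratio to the MPA mean of every probe set (colour) on every array (points), with group means (short bars) joined over the MFP times. Nrip1 lies above MPA in the no MPA group and from 12 h of MFP on for most probe sets, Myb lies below, Celsr2 turns down at 24 h and 48 h, and the no MPA arrays of Greb1 lie far apart.

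Nrip1 gave the clearest pattern. Its probe set 1418469_at read -0.02 and 0.01 in MPA and 1.14 and 1.15 in the no MPA arrays, and under MFP it was 0.69 and 0.52 (6 h), 1.54 and 1.53 (12 h), 1.33 and 1.65 (24 h), and 1.43 and 2.07 (48 h). Every array without MPA lay above both MPA arrays. The group means were lowest in MPA, then 6 h and no MPA, and higher at 24 h, 12 h and 48 h, whose arrays overlap. Under quantile normalization the no MPA mean lay above that of 48 h. The difference from MPA was 1.53 ± 0.22 (12 h, SE, limma, adjusted p = 0.00851), 1.49 ± 0.22 (24 h, adjusted p = 0.00502) and 1.75 ± 0.22 (48 h, adjusted p = 0.00330), a ratio of 3.36 at the last time.

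The probe set 1449089_at followed, at 1.63 ± 0.22 (12 h, adjusted p = 0.00660), 1.58 ± 0.22 (24 h, adjusted p = 0.00333) and 1.58 ± 0.22 (48 h, adjusted p = 0.00406), and it stood at 0.87 ± 0.22 already at 6 h without passing (adjusted p = 0.0944). The sets 1434384_at and 1447211_at passed at the same 3 times, with differences from 1.04 to 1.48. The remaining Nrip1 probe sets behaved otherwise: 1432603_at did not pass at any time (0.96 ± 0.34 for 48 h), and 1454295_at read 0.13 and -0.62 (6 h), 1.34 and 0.51 (12 h), 0.57 and -0.08 (24 h), and 0.30 and -0.21 (48 h), back at the MPA level (0.05 ± 0.35). Correlations between Nrip1 probe sets over the 12 arrays ranged from 0.30 to 0.95. Without one array at a time, 1418469_at kept its call at 48 h in all 4 fits (adjusted p from 0.00720 to 0.0270) and at 12 h in 2 of 4 (to 0.0705). At 12 h 1434384_at and 1447211_at kept theirs in 0 of 4.

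Myb moved the other way. The probe set 1421317_x_at read 0.28 and -0.35 in MPA and -0.72 and -0.56 in the no MPA arrays, and under MFP it was -0.78 and -1.13 (6 h), -1.52 and -0.86 (12 h), -1.55 and -1.08 (24 h), and -1.77 and -1.65 (48 h). All MFP and no MPA arrays lay below both MPA arrays, although the MPA arrays themselves were 0.63 apart. It fell by 1.28 ± 0.29 (24 h, adjusted p = 0.0295) and by 1.68 ± 0.29 (48 h, adjusted p = 0.00912), to a ratio of 0.313. The call at 48 h was lost without MPA replicate 1 (-1.36, adjusted p = 0.0665), and that at 24 h without MPA replicate 1, MFP 24 h replicate 1 or MFP 24 h replicate 2 (adjusted p to 0.174). Probe sets ending in _x_at can also match related transcripts. The set 1450194_a_at stood at -1.31 ± 0.36 (12 h) and -1.28 ± 0.36 (48 h, adjusted p = 0.0855 and 0.0534), and 1422734_a_at at -1.01 ± 0.42 (48 h, adjusted p = 0.174). Blood progenitors also express Myb, and the list of immature blood cells (9 genes) read 0.91 and 0.13 (48 h) against 0.10 and -0.11 in MPA.

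Ret was higher at 48 h on one of its probe sets. The values of 1421359_at were 0.01 and -0.01 in MPA and 0.42 and 0.17 in the no MPA arrays, and under MFP it was 0.05 and 0.52 (6 h), 0.41 and -0.08 (12 h), 0.41 and 0.37 (24 h), and 0.93 and 1.12 (48 h). Both 48 h arrays lay above every other array. The difference from MPA was 1.03 ± 0.23 (adjusted p = 0.0217), a ratio of 2.04. It was between 0.93 and 1.12 without any one of the 4 arrays, with adjusted p from 0.0631 to 0.0987, so that the call rests on having all of them. The other probe set, 1436359_at, stood at 0.46 ± 0.27 (adjusted p = 0.340). Nerve and neuroendocrine markers (5 genes), cells that also express Ret, read -0.07 and 0.13 (48 h).

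Of 8 genes for RET ligands and co-receptors, 1 rose at 12 h and 1 at 24 h. They were the ligand gene Gdnf (0.84 ± 0.19 for 12 h, adjusted p = 0.0422) and the co-receptor gene Gfra1 (1.02 ± 0.21 for 24 h, adjusted p = 0.0206). The share of all genes with a probe set called higher was 2.08% at 12 h and 5.03% at 24 h. At 48 h none passed against MPA, and the co-receptor gene Gfra2 had 0.97 ± 0.30 (adjusted p = 0.0715).

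Xbp1 was above MPA at 48 h on all 4 probe sets without passing. The set 1420011_s_at read -0.13 and 0.12 in MPA and -0.43 and -0.15 in the no MPA arrays, and under MFP it was 0.15 and 0.38 (6 h), 0.27 and 0.27 (12 h), 0.27 and 1.11 (24 h), and 0.93 and 0.91 (48 h, 0.92 ± 0.26 against MPA, adjusted p = 0.0522). The 24 h arrays were far apart. Differences at 48 h were 0.87 ± 0.27 for 1420012_at, 0.80 ± 0.29 for 1420886_a_at and 0.44 ± 0.18 for 1437223_s_at. The set 1420886_a_at was already at 0.97 ± 0.29 (12 h, adjusted p = 0.107). Pancreas acini, plasma cells and hepatocytes make much Xbp1. On MFP 24 h replicate 2, the higher Xbp1 array of that time, the pancreas list read 6.63 and the list of B and plasma cells (7 genes) 2.31. At 6 h, with pancreas medians of 5.68 and 4.47, 1420886_a_at stood at 0.53 ± 0.29 and 1420011_s_at at 0.27 ± 0.26. The sets 1420012_at and 1437223_s_at stood at 0.13 ± 0.27 and -0.12 ± 0.18 there. At 48 h B and plasma cell markers read 2.26 and -0.21 while 1420011_s_at was 0.93 and 0.91. Their part in the Xbp1 values was not tested.

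Pdzk1 and Rara did not pass in any comparison. Pdzk1 ranged from -0.46 (48 h replicate 1) to 0.93 (24 h replicate 1), with -0.17 ± 0.31 (48 h) and a 95% interval from -0.85 to 0.51. Rara ranged from -0.27 to 0.54, with -0.07 ± 0.26 (48 h) and an interval from -0.65 to 0.50. Each interval leaves room for a change of up to that size either way. Pdzk1 is abundant in kidney and liver. Kidney markers (9 genes) stayed between -0.10 and 0.19, and at 24 h, with liver medians of 3.64 and 4.08, Pdzk1 read 0.93 and 0.00.

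Among 10 genes of retinoic acid receptors and their targets, Dhrs3, a retinaldehyde reductase gene induced by retinoic acid, was the only gene called at 48 h (1.57 ± 0.21, adjusted p = 0.00384), where 7.35% of all genes had a probe set called higher. Crabp2, a carrier of retinoic acid, fell by 1.39 ± 0.21 (12 h, adjusted p = 0.00968). Of the MYB family, Mybl2, a gene of dividing cells, stood at -1.23 ± 0.20 (24 h, adjusted p = 0.00781) and -0.67 ± 0.20 (48 h, adjusted p = 0.0663). Of 9 planar cell polarity genes 1 fell at 48 h, the receptor gene Fzd3 (-1.07 ± 0.20, adjusted p = 0.0128), with 7.44% of all genes called lower. Of 6 genes of PDZK1 partners, Pdzk1ip1 rose at 12 h (1.13 ± 0.19, adjusted p = 0.0139) and the lipoprotein receptor gene Scarb1 fell (-0.99 ± 0.22, adjusted p = 0.0426). At 12 h 1 of the 10 retinoic acid genes rose and 1 fell, as did 1 each of the 6 PDZK1 partners, against 2.08% of all genes called higher and 3.13% lower.

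The no MPA group asked what loss of MPA alone did over 48 h. No probe set on the whole array passed the test against MPA (limma, 0 of 45037, 0%), and so no member did. At an unadjusted p under 0.05 stood 2963 probe sets (6.58%) and 8 of the 23 members, which were all 6 of Nrip1 and 2 of Greb1. With quantile normalization 6 probe sets of the array were called, and 5 without MPA replicate 1, no member among them. The Nrip1 differences were 1.15 ± 0.22 for 1418469_at, 1.26 ± 0.22 for 1449089_at and between 0.89 and 1.05 for the others (adjusted p from 0.247 to 0.675 over the 6). On all 6 probe sets both no MPA arrays lay above both MPA arrays.

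Greb1 had its highest values without MPA, and there its arrays disagreed. The set 1439568_at read 0.15 and -0.17 in MPA and 0.49 and 2.72 in the no MPA arrays, and under MFP it was -0.60 and -0.76 (6 h), -0.78 and -1.0 (12 h), 0.11 and -0.15 (24 h), and 0.21 and 1.21 (48 h). The difference of no MPA from MPA was 1.61 ± 0.57 (adjusted p = 0.675). The set 1445323_at read 1.19 and 3.30 in the no MPA arrays, and under MFP 2.45 and -0.22 (24 h) and 2.16 and 0.04 (48 h), so that arrays of one group differed by up to 2.67. The sets 1419593_at and 1445324_s_at stayed between -0.81 and 0.54 and stood at 0.04 ± 0.31 and 0.07 ± 0.34 in no MPA against MPA. Within the MFP arrays 1439568_at rose with time, by 0.50 ± 0.12 per doubling of hours (adjusted p = 0.0290), from below MPA at 6 h and 12 h.

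The last comparison set MFP at 48 h against no MPA at 48 h, which differ in MFP but not in MPA. Here 5 of 23 probe sets passed (21.7%, against 9.35% of all), 3 of Xbp1 higher (5.08% of all) and 1 each of Myb and Celsr2 lower (4.28% of all). Xbp1 1420011_s_at was 1.21 ± 0.26 higher (adjusted p = 0.0184), 1420012_at 1.10 ± 0.27 (adjusted p = 0.0300) and 1437223_s_at 0.79 ± 0.18 (adjusted p = 0.0256), while 1420886_a_at had 0.80 ± 0.29 (adjusted p = 0.119). Both MFP arrays lay above both no MPA arrays on all 4. Under quantile normalization none of the 5 member calls held. Without one array at a time, 1420011_s_at stood between 1.07 and 1.35 with adjusted p from 0.0596 to 0.120, 1420012_at kept its call in 0 of 4 such fits and 1437223_s_at in 1. Pancreas markers read 4.78 and 5.28 under MFP and -0.94 and -0.76 in the no MPA arrays, and macrophage markers 1.67 and 2.07 against -0.23 and -0.31.

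Celsr2 turned from above to below MPA along the MFP times. The set 1435336_at read 0.27 and -0.33 in MPA and 0.48 and -0.03 in the no MPA arrays, and under MFP it was 0.19 and 0.33 (6 h), 0.96 and 0.52 (12 h), 0.12 and -0.40 (24 h), and -1.04 and -1.0 (48 h). The 48 h arrays lay below every other array. It was 1.25 ± 0.28 lower than no MPA on the log2 scale (-1.25, adjusted p = 0.0213) and at -0.99 ± 0.28 against MPA (adjusted p = 0.0516), and it fell by 0.47 ± 0.13 per doubling of hours (adjusted p = 0.0472). The call against no MPA held in 1 of the 4 fits with an array left out (-1.50 to -0.99, adjusted p from 0.0450 to 0.148). The set 1422073_a_at took the same course with smaller values (-0.44 ± 0.28 against no MPA, adjusted p = 0.403). Luminal markers read -0.39 and -0.12 (48 h) and 0.55 and 0.43 (12 h). Their part in the Celsr2 course was not tested.

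Myb 1421317_x_at was lower under MFP than in no MPA (-1.07 ± 0.29, adjusted p = 0.0439), a call lost without any one of the 4 arrays (adjusted p from 0.114 to 0.186). For Nrip1 the difference between MFP at 48 h and no MPA did not pass on any probe set. It was 0.60 ± 0.22 for 1418469_at (95% interval from 0.11 to 1.10, adjusted p = 0.129) and 0.32 ± 0.22 for 1449089_at (-0.16 to 0.80), but -0.95 ± 0.35 for 1454295_at. Quantile normalization turned the direction for the 4 probe sets with values above 0, to -0.51 for 1418469_at, -0.79 for 1449089_at, -0.37 for 1434384_at and -0.54 for 1447211_at, so that no direction between these groups is given for Nrip1. Ret 1421359_at stood at 0.73 ± 0.23 (adjusted p = 0.0725), and Greb1 1439568_at at -0.90 ± 0.57 with an interval from -2.15 to 0.36, and at 0.22 without no MPA replicate 2.

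**Figure D3:**
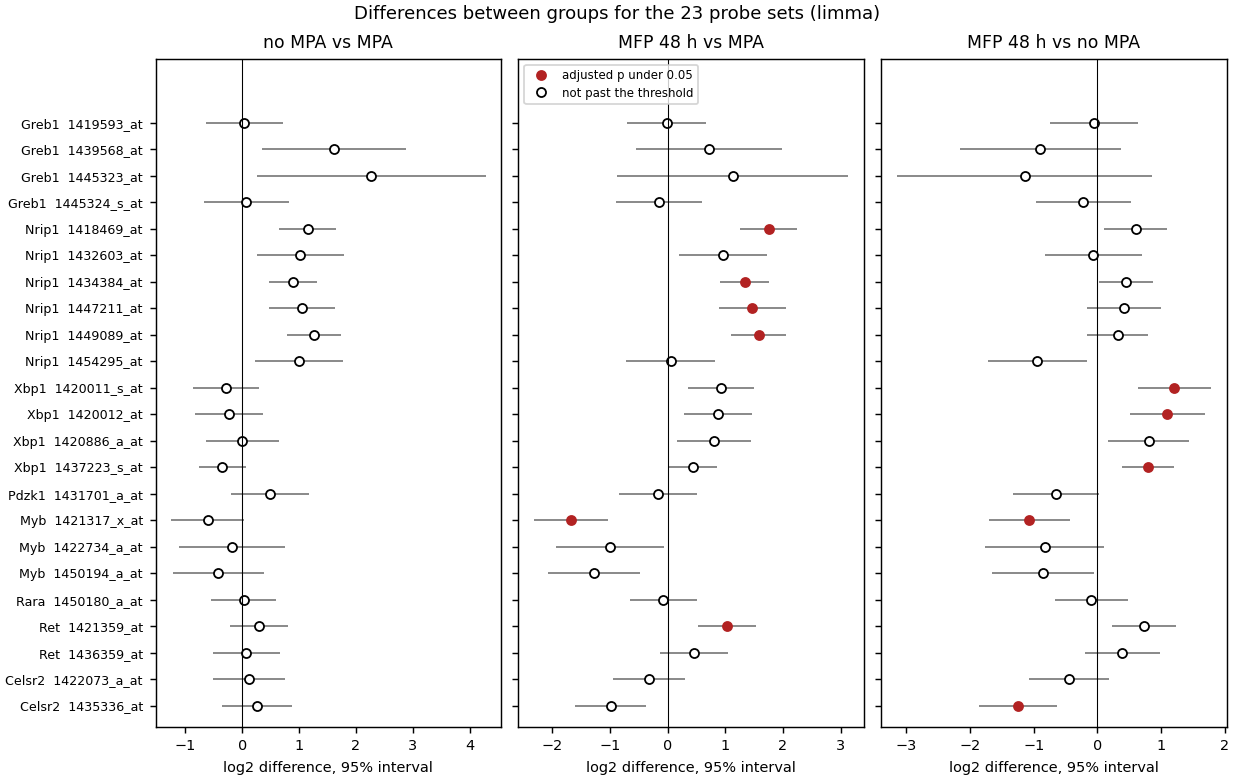
Log2 differences with 95% intervals for the 23 probe sets in 3 comparisons (limma), with red points for an adjusted p under 0.05. Nrip1 lies to the right of 0 on all 6 probe sets in no MPA against MPA, where nothing passed, and Xbp1 passes only in MFP 48 h against no MPA.

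Over the MFP arrays alone, 3 probe sets changed with time (13.0%, against 9.28% of all): Nrip1 1434384_at rose by 0.36 ± 0.08 per doubling (adjusted p = 0.0281), Greb1 1439568_at rose and Celsr2 1435336_at fell. Of all probe sets 4.96% rose and 4.32% fell with time. A share so near that of all probe sets is no result about the group of genes. The 3' minus 5' difference of the Actb controls also rose over these times, from 0.16 (6 h) to 0.53 (48 h). Its part in the slopes was not tested. All 3 calls were lost without MFP 6 h replicate 2, and the range over the 8 fits with an array left out was 0.29 to 0.41 for Nrip1, 0.35 to 0.59 for Greb1 and -0.58 to -0.41 for Celsr2. Of 12 genes of the XBP1 pathway, 3 rose with time, against 8.18% of all genes with a probe set called higher. They included Edem1, of ER-associated degradation (0.30 ± 0.07, adjusted p = 0.0229), and the chaperone gene Hspa5 (0.28 ± 0.07, adjusted p = 0.0347). None of them fell with time (5.73% of all genes did), and at no single time against MPA did a gene of that list pass.

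The estrogen receptor gene and its pioneer factor genes were lower late under MFP, with calls at 24 h or 48 h. At 12 h, when Nrip1 passed, no probe set of Esr1, Foxa1 or Gata3 did. There Esr1 1435663_at stood at -0.28 ± 0.23, Foxa1 at -0.14 ± 0.33 and Gata3 at 0.14 ± 0.46. All 3 Esr1 probe sets fell at 48 h against MPA, led by 1435663_at (-1.72 ± 0.23, adjusted p = 0.00375). In no MPA 1435663_at stood at -0.70 ± 0.23 without passing (limma, adjusted p = 0.662). There 1421244_at stood at 0.05 ± 0.25 and 1460591_at at -0.08 ± 0.29. The pioneer factor genes Foxa1 (-1.80 ± 0.33, adjusted p = 0.0116) and Gata3 (-2.18 ± 0.46, adjusted p = 0.0177) fell at 48 h as well. In no MPA Foxa1 stood at 0.30 ± 0.33 and Gata3 at 0.34 ± 0.46 against MPA, and neither passed. Luminal markers read -0.39 and -0.12 (48 h) and macrophage markers 1.67 and 2.07, and their part in these falls was not tested. Alternative runs were recorded for the members alone, so how these calls depend on the processing is not known. Under quantile normalization 18 of all 45037 probe sets passed at 48 h. Of 16 genes for estrogen receptors, pioneer factors and coregulators 5 fell and 1 rose at 48 h (median -0.23, all genes 0.00), where 7.44% of all genes were called lower and 7.35% higher. The methyltransferase gene Prmt1 fell at 6 h (-1.31 ± 0.23, adjusted p = 0.0299), and the coactivator gene Ncoa3 was the one that rose (0.84 ± 0.21, adjusted p = 0.0333). Pgr, the progesterone receptor gene, was higher at 12 h on all 3 probe sets (1.51 ± 0.21 for 1439527_at, adjusted p = 0.00793) and at 48 h on that one alone (0.77 ± 0.21, adjusted p = 0.0495). In no MPA that probe set stood at 1.71 ± 0.21 without passing (adjusted p = 0.142). At 48 h of MFP Pgr was lower than in no MPA on 1421444_at (-2.08 ± 0.28, limma adjusted p = 0.00295) and 1439527_at (-0.94 ± 0.21, adjusted p = 0.0232). The set 1455772_at stood at -1.15 ± 0.37 there (adjusted p = 0.0787).

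**Figure D4:**
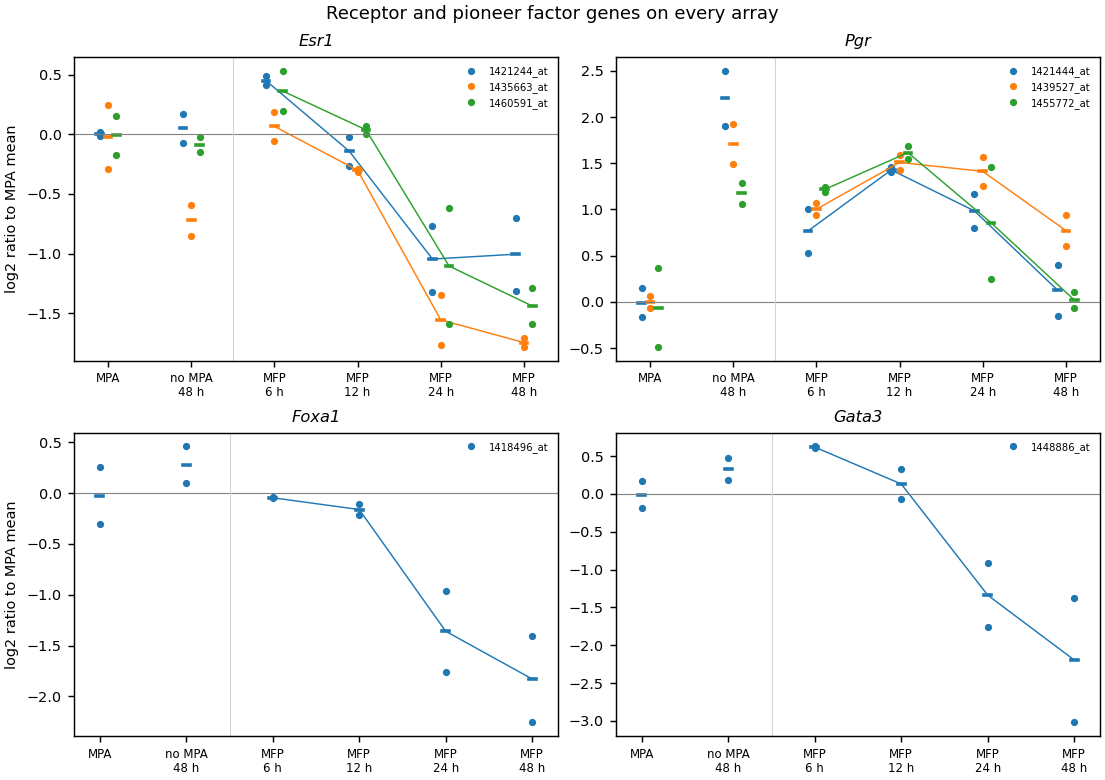
Log2 ratio to the MPA mean of Esr1, Pgr, Foxa1 and Gata3 probe sets (colour) on every array (points), with group means (bars) joined over the MFP times. Esr1, Foxa1 and Gata3 lie lower at 24 h and 48 h. The Pgr group means lie above MPA in the no MPA group and at 6 h, 12 h and 24 h, and nearer to MPA at 48 h.

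Other estrogen-responsive genes went both ways. Of 23 measured 2 fell at 6 h and none rose, where 1.21% of all genes had a probe set called lower. These were the cell cycle genes Ccnd1 (-1.85 ± 0.22, adjusted p = 0.0118) and Myc (-1.70 ± 0.28, adjusted p = 0.0263), at a time when no member passed. At 24 h 4 rose and 3 fell (5.03% of all genes were called higher and 5.17% lower). At 48 h 4 rose and 1 fell (median 0.18, all genes 0.00), against 7.35% of all genes higher and 7.44% lower. The rises at 48 h included the protease gene Ctsd (1.44 ± 0.27, adjusted p = 0.0119), which macrophages also express, and Igfbp4, an IGF-binding protein gene (1.03 ± 0.22 for 1423757_x_at, adjusted p = 0.0199). The fall at 48 h was Myc (-1.46 ± 0.28, adjusted p = 0.0127). Against no MPA, Stc2, a secreted glycoprotein gene, fell by 2.76 ± 0.38 (1449484_at, adjusted p = 0.00346), among 4 falls and 4 rises, where 8.4% of all genes were called higher and 6.35% lower. In the same comparison, among partners of the members, the RET co-receptor gene Gfra2 rose (1.31 ± 0.35 for 1433716_x_at, adjusted p = 0.0422), as did Dhrs3 (1.26 ± 0.21, adjusted p = 0.00656). Of the planar polarity genes, Prickle2 rose (1.32 ± 0.36, adjusted p = 0.0483) and Fzd3 fell (-0.91 ± 0.20, adjusted p = 0.0219). The chaperone gene Dnajc3 of the XBP1 list fell by 0.73 ± 0.17 (adjusted p = 0.0280).

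The patterns most like each member were looked up among 6181 probe sets of single-symbol genes with an SD of at least 0.5 over the 12 arrays, taking for each member its most variable probe set. For Nrip1 1418469_at the highest correlations were with Rab27b (r = 0.944), Kcnj10 (0.933) and Bhlhe41 (0.922). For Celsr2 1435336_at they were with Fam25c (0.956), Klf5 (0.949) and Enho (0.935), and for Myb 1421317_x_at with Rbl1 (0.933), Nexmif (0.921) and Slc38a1 (0.918). Xbp1 1420886_a_at was most like Clca3a1 (0.920), Phf11d (0.912) and Clca3a2 (0.903), and Ret 1421359_at was most like Tns1 (0.909), Lhfpl2 (0.907) and Zhx3 (0.903). For Greb1, Rara and Pdzk1 the best values were lower, at 0.837 with Chst8, 0.872 with Mpp5 and 0.763 with Pomt2. The 12 points share groups of 2 arrays and the organ signals above, and with so many candidates high values arise readily, so these are descriptions only.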

How the data were processed

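Gene expression was measured on 12 Affymetrix mouse arrays with RNA (200 ng) from formalin-fixed, paraffin-embedded tumours. Per the submitters' processing notes the authors used GCRMA. The deposited log2 values proved to be ratios to the MPA mean, since back on the linear scale both MPA columns average 1 (within 0.0001) for 45099 of 45101 probe sets. Groups follow the source names. After 64 controls were left out, 45037 probe sets were fitted one by one with limma 3.58.1 (R 4.3.3): 6 group means over 12 arrays, eBayes (6 residual and 4.38 prior degrees of freedom), Benjamini-Hochberg over all probe sets at 0.05. The trend used log2 of hours in the 8 MFP arrays. No filter or further scaling was applied. The comparison of MFP at 48 h with MPA was tried on simulated data, and the other comparisons were not. Probe sets of a gene were kept apart, and lists count a gene as risen or fallen where at least 1 probe set passed. Members and lists were chosen with earlier results of these data known. From each list up to 2 genes per direction with the smallest p were eligible for naming, and part of them is printed, with Esr1, Pgr, Foxa1 and Gata3 always. Of the list genes 14 had no single-symbol probe set and were not analysed here. Alternatives covered scaling, probe sets, weights, eBayes and left-out arrays. Within no group were the 2 arrays identical. The number of arrays limits the precision.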

Additional observations from a re-analysis of the deposited data

Results flagged for a closer look

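These values differed between groups under the same contrast, by a test of the difference itself. Between MFP at 48 h and no MPA at 48 h, both set against MPA, Xbp1 differed by 1.21 (1420011_s_at, limma adjusted p = 0.0184), 1.10 (1420012_at, adjusted p = 0.0300) and 0.79 (1437223_s_at, adjusted p = 0.0256), with both MFP arrays above both no MPA arrays in each case. Celsr2 1435336_at differed by -1.25 (adjusted p = 0.0213) and Myb 1421317_x_at by -1.07 (adjusted p = 0.0439), with both MFP arrays below both no MPA arrays. Between the MFP times, the slope per doubling of hours was -0.47 for Celsr2 1435336_at (adjusted p = 0.0472), 0.50 for Greb1 1439568_at (adjusted p = 0.0290) and 0.36 for Nrip1 1434384_at (adjusted p = 0.0281).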

How the results depend on the processing

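No called value of a member changed sign under any alternative run. Among values that did not pass, several changed sign. The Nrip1 differences between MFP 48 h and no MPA did so for 4 probe sets under quantile normalization (-0.79 to -0.37). Greb1 1445323_at at 24 h went from 1.14 to -0.19 without MFP 24 h replicate 1. Greb1 1439568_at in MFP 48 h against no MPA went from -0.90 to 0.22 without no MPA replicate 2. Without MPA replicate 1, Myb 1422734_a_at at 12 h went from -0.31 to 0.01, and Myb 1450194_a_at in no MPA from -0.42 to 0.001. Counts of member probe sets past the threshold moved by more than 1.5 times in these cases. Quantile normalization gave 2 in place of 4 at 12 h, 0 in place of 5 at 24 h, 0 in place of 6 at 48 h, 0 in place of 5 for MFP 48 h against no MPA, and 1 in place of 3 for the trend. It forces onto the MPA columns, with SDs of 0.255 and 0.267 over probe sets by the way the ratios were made, the spread of the other columns (0.390 to 0.741). With 1 probe set per gene the counts were 1 at 12 h, 2 at 24 h, 2 against no MPA and 1 for the trend, since only 8 of the 23 probe sets enter. Without _x_at, _s_at and _a_at probe sets 2 passed against no MPA, as fewer Xbp1 and Myb sets remain. Fitted on the 4 arrays of the compared groups alone, 0 passed at 12 h, 24 h and 48 h against MPA (2 residual degrees of freedom), and 4 against no MPA. Leaving out one array at a time gave 0 to 2 at 12 h, 3 to 7 at 24 h, 3 to 7 at 48 h, 0 to 1 against no MPA and 0 to 3 for the trend; where this leaves a group 1 array, that array is assumed to vary like the other groups. At 6 h and for no MPA against MPA the count was 0 under every alternative. Median centring, array weights, robust eBayes and a trend on hours stayed within 1.5 times. No paired analysis was possible because the labels carry no replicate numbers. Signal over background is unknown, which limits what low probe sets can show.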
